A study of Oryzias latipes with 12 samples.

Results

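Cells make ribosomes in the nucleolus. RNA polymerase I transcribes the precursor of the ribosomal RNAs, snoRNA-guided enzymes modify it, and many assembly factors fold and cut it while ribosomal proteins join, along separate routes for the small (40S) and the large (60S) subunit. The RNA exosome, a ring of subunits with a cap and attached nucleases, trims precursor RNAs from their 3' ends and breaks down the spacers and faulty transcripts. In brain these genes are expressed in every cell type, and their activity is known to follow growth and protein synthesis. The roles given below are known from yeast and human cells and were not established in medaka here.

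The ribosome biogenesis and RNA exosome genes were taken as all genes whose symbol matched a set of names (the nop, utp, rrp, nol and exosc series, polr1 subunits, and named factors such as imp3, rpf2, tsr1, pes1, sbds, fbl, dkc1 and 7 wdr genes) and whose level reached at least 1 TPM in at least 3 libraries. The names matched 66 of 26663 genes, and all 66 passed the level filter. TPM, a share of all transcripts, is a level corrected for transcript length, so it can be compared between genes. Of the 66, 29 act in the small-subunit processome or later 40S maturation, 17 in 60S assembly and 10 in the RNA exosome. A further 4 encode RNA polymerase I subunits, 3 the box C/D snoRNP core and 1, dkc1, the box H/ACA core. The remaining 2, nol7 and nol12, are given no role here, because theirs was taken as unsure or outside these groups.

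The RNA came from medaka (Oryzias latipes) brain tissue that holds the ventral telencephalon, the hypothalamus and the pituitary, sampled at hour 12. There were 4 groups of 3 libraries: phod1 (pd1) knockout 12 days after a move to long days, phod1 knockout under short days before that move, wild type 12 days after the move, and wild type under short days before it. Replicates are called by the numbers in their titles (13, 14 and 16 for long-day knockout, 1, 3 and 4 for short-day knockout, 13, 14 and 15 for long-day wild type, 1, 2 and 3 for short-day wild type). Because every short-day sample preceded the move, day length cannot be told apart from the 12 days that passed or from the move itself. The sources used here do not give the strain, age, sex or number of fish behind a library, nor the knockout allele. The p-values therefore measure only the spread between these samples, which may be technical. Neither phod1 nor pd1 matched a symbol in the table, so loss of the target could not be checked.

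The deposited values keep no read counts, and the depth behind each value is unknown. Across the 18218 genes that passed the level filter, log2(TPM + 1) values correlated at 0.971 to 0.980 (Pearson) between libraries of 1 group and at 0.957 to 0.979 between libraries of different groups. Short-day wild-type replicate 3 stood apart by an interferon-response gene. In this library rsad2, an antiviral gene, stood at 287 TPM, against at most 6.30 TPM in each of the other 11. Other genes of that response are not given here. For the genes matched by name above, each call below that changes without this library is given with its value. For the other genes named below (further factors, cell markers and neighbours), whether a call changes without this library is not given. All tested neuron, radial glia and pituitary markers were above 0 TPM in every library. The hormone gene prl and the radial glia marker slc1a3 did not pass the level filter. Differences below are on the log2(TPM + 1) scale from 1 limma fit over 18218 tested genes, with calls made where the p, adjusted over all of them by Benjamini-Hochberg, was under 0.05. "Rose" and "fell" are used of called genes.

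The 66 genes were expressed at moderate levels. Their mean over 12 libraries had a median of 20.5 TPM, beside 17.5 TPM over all tested genes, and ran from 6.30 TPM for nol6, a small-subunit processome factor, to 133 TPM for sbds, which releases the anti-association factor eIF6 from new 60S subunits. Within each role the levels spread widely. Among small-subunit factors wdr36, a UTP-B subcomplex protein, averaged 59.1 TPM. In the exosome exosc4, a ring subunit, averaged 67.5 TPM and exosc9, another ring subunit, 12.8 TPM. RNA polymerase I subunits ran from 6.85 TPM for polr1b, the second-largest subunit, to 34.2 TPM for polr1c, a subunit also used by RNA polymerase III. The box C/D genes ran from 33.7 TPM for nop58 to 90.6 TPM for nop56, both scaffold proteins of the particle, and dkc1, the pseudouridine synthase of the box H/ACA particle, averaged 63.1 TPM.

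**Figure D1:**
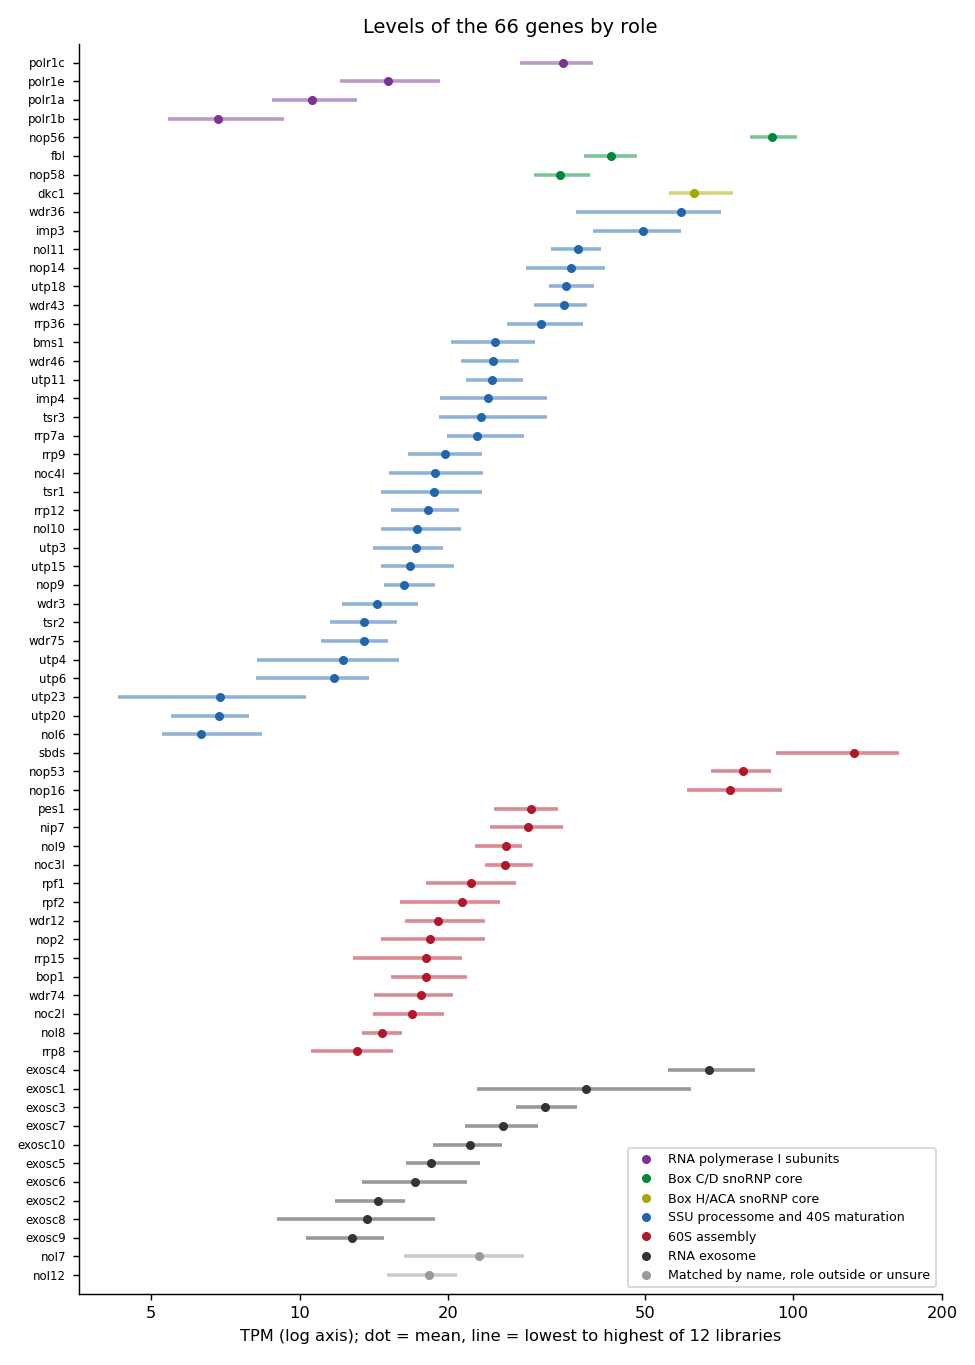
Level of each of the 66 genes, in TPM on a log axis, by role; the dot is the mean and the line runs from the lowest to the highest of 12 libraries. Means run from 6.30 TPM (nol6) to 133 TPM (sbds).

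Replicates of a group lay close together for most of these genes. The within-group SD of log2(TPM + 1) had a median of 0.133 over the 66 genes, beside 0.164 over all tested genes and 0.14 over the 11972 other tested genes in the same range of level. The widest were exosc8 with 0.304, utp23 with 0.283 and wdr36 with 0.269. The values of exosc8, a ring subunit, were 11.8, 14.4 and 18.5 TPM in long-day knockout, 9.01, 14.7 and 13.9 TPM in short-day knockout, 18.8, 12.1 and 14.5 TPM in long-day wild type, and 14.7, 12.1 and 10.2 TPM in short-day wild type. All 4 groups of exosc8 overlapped. For 3 against 3 libraries the unadjusted 95% interval of a difference reached 0.247 to either side at the median over the 66 genes. Smaller differences of single genes were therefore mostly not detectable. Some larger ones did not pass the adjusted test either. For long against short days in the knockout these included nol10 at 0.35 (limma adjusted p = 0.0680) and utp4 at 0.44 (limma adjusted p = 0.144).

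Few of the 66 genes passed the test for day length. Over both genotypes, long days against short days, 3 were called: exosc1 and nol10 rose and sbds fell. The same test called 3.08% of all tested genes. At an unadjusted p under 0.05 there were 13 genes, 5 higher and 8 lower under long days (19.7% of the 66, beside 18.8% of all tested genes). The shares are close to the background of the whole table.

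The median difference of the 66 genes, long minus short days, was -0.07, beside -0.009 over all tested genes, and 45 of 66 (68.2%) were lower under long days, beside 52.3% of all tested genes. In the small-subunit group 23 of 29 were lower, with a median of -0.10, while the called nol10 was higher. Of these 29, 16 (55.2%) were lower in the knockout, beside 44.2% of all tested genes, with a median of -0.028. In wild type 24 (82.8%) were lower, beside 61.2% of all tested genes, with a median of -0.106. In the 60S group, over both genotypes again, 11 of 17 were lower, sbds among them, with a median of -0.06. All 3 box C/D genes and dkc1 had lower means under long days, and none was called. Of the 4 RNA polymerase I genes 3 were higher, with a median of 0.07 and none called. These shifts are small: 65 of 66 differences (98.5%) were under 0.5 in size, beside 95.8% of all tested genes. Genes of 1 library are not independent replicates, so these counts are a description and not a test.

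In the knockout, long against short days, 2 genes were called, exosc1 up and sbds down, where the same test called 1.76% of all tested genes. At an unadjusted p under 0.05 there were 11 (3 higher, 8 lower), or 16.7%, beside 15.9% of all tested genes. The median difference was -0.06, beside 0.03 over all tested genes. In wild type limma called 0 of the 66, where it called 0.192% of all tested genes, and 10 stood at an unadjusted p under 0.05 (4 higher, 6 lower), or 15.2%, beside 11.6%. The median difference in wild type was -0.04, beside -0.05 over all tested genes, and with median-ratio scaling it was 0.007, so no direction is given for the wild type.

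**Figure D2:**
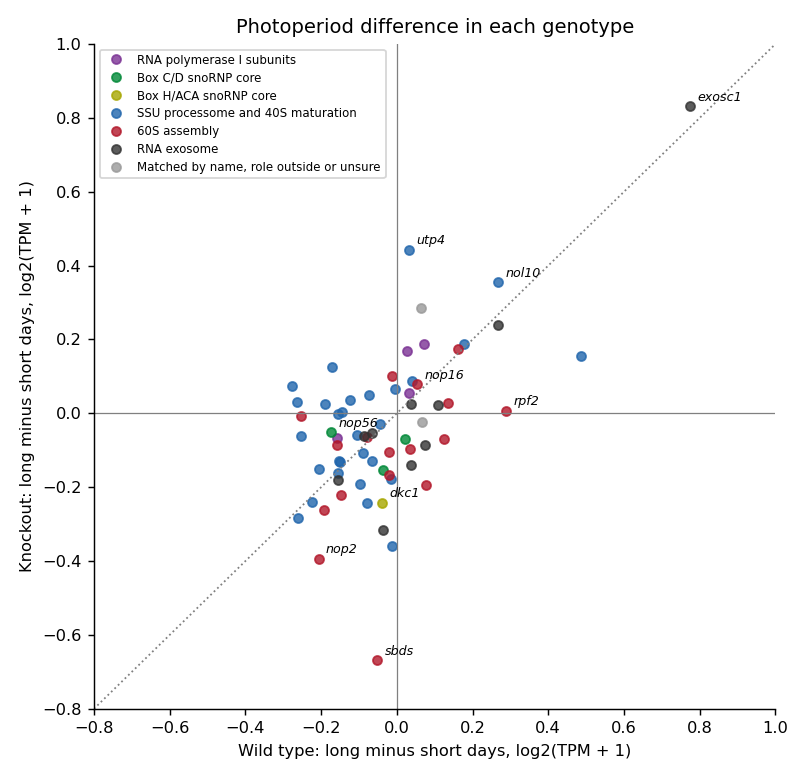
Long-day minus short-day difference on the log2(TPM + 1) scale in the knockout (vertical) against wild type (horizontal); each dot is 1 of the 66 genes, coloured by role, and the dotted line marks equal differences. exosc1 lies at 0.83 in the knockout and 0.78 in wild type, near the dotted line, while sbds lies at -0.67 in the knockout and -0.05 in wild type.

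The strongest change among the 60S factors was that of sbds in the knockout. Its level was 93.4, 96.8 and 92.4 TPM in long-day knockout, 161, 145 and 145 TPM in short-day knockout, 143, 136 and 143 TPM in long-day wild type, and 139, 136 and 164 TPM in short-day wild type. All 3 long-day knockout libraries lay below all other 9, short-day wild type overlapped both remaining groups, and short-day knockout lay just above long-day wild type. In the knockout sbds fell under long days to 0.626 times its short-day level (94.2 ± 2.31 TPM in long-day and 150.5 ± 9.04 TPM in short-day knockout, SD, n = 3 each; log2 difference -0.67, SE 0.07, limma adjusted p = 0.00186). In wild type the difference was -0.05 (SE 0.07, limma adjusted p = 0.850), with an interval from -0.21 to 0.11.

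Under long days sbds was also lower in the knockout than in wild type (94.2 ± 2.31 TPM in knockout, 141 ± 4.16 TPM in wild type, SD, n = 3 each; log2 difference -0.57, SE 0.07, limma adjusted p = 0.00646). This call was lost under 1 of 17 settings, with the numbers in the titles as a replicate block (limma adjusted p = 0.284). Under short days the genotypes differed by 0.04 (SE 0.07, limma adjusted p = 0.853). The test of the difference itself, the photoperiod change in the knockout minus that in wild type, gave -0.62 (SE 0.10) with a limma adjusted p of 0.130, which did not pass. That adjusted p was 0.0440 without short-day wild-type replicate 3 and up to 0.666 under the other settings. The pooled calls of sbds, -0.36 for long against short days (adjusted p = 0.00532 by limma) and -0.27 for knockout against wild type (adjusted p = 0.0242 by limma), include the same 3 long-day knockout libraries; the genotype call was lost under 6 of 16 settings, with an adjusted p up to 0.0602 where 1 library was left out. In the reference annotation sbds overlaps 1 unnamed gene, LOC101161321, which stood at 0.64 to 3.12 TPM.

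**Figure D3:**
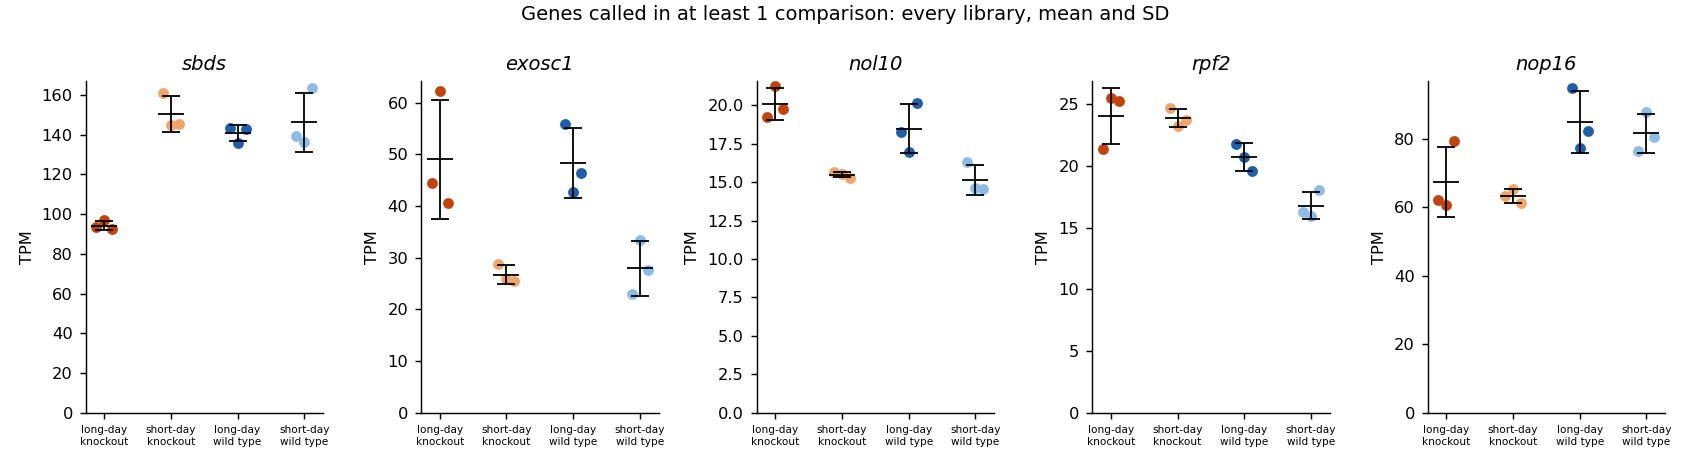
Levels in TPM of the 5 genes called in at least 1 comparison, with each library as a dot and the mean and SD (n = 3) of each group as bars. The long-day knockout libraries of sbds sit at 92.4 to 96.8 TPM, below all others; exosc1 and nol10 are higher in the long-day groups, rpf2 is lowest in short-day wild type, and nop16 is lower in most knockout libraries.

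Among the 10 exosome genes 1 was called for long against short days over both genotypes, where the test called 3.08% of all tested genes. At an unadjusted p under 0.05 there were 2 (1 higher, 1 lower), or 20%, beside 18.8% of all tested genes. exosc1, a subunit of the RNA-binding cap, stood at 44.4, 62.2 and 40.6 TPM in long-day knockout, 28.8, 25.8 and 25.5 TPM in short-day knockout, 55.9, 42.7 and 46.3 TPM in long-day wild type, and 22.9, 33.5 and 27.5 TPM in short-day wild type. Each of the 6 long-day libraries was above each of the 6 short-day libraries, and the genotypes overlapped. Over both genotypes exosc1 rose under long days to 1.78 times its short-day level (48.7 ± 8.48 TPM in long-day and 27.3 ± 3.62 TPM in short-day libraries, SD, n = 6 each; log2 difference 0.80, SE 0.12, limma adjusted p = 0.00582). This call held under all 15 other settings, with differences from 0.71 to 0.87.

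The long-minus-short difference of exosc1 was close in size in both genotypes: 0.83 (SE 0.17, limma adjusted p = 0.0375) in the knockout and 0.78 (SE 0.17, limma adjusted p = 0.107) in wild type, where it did not pass. Its interaction was 0.06, with an interval from -0.47 to 0.58. The knockout call was lost under 8 of 16 settings, with an adjusted p of 0.0909 when only the compared groups were fitted and up to 0.117 when a library was left out (without long-day knockout replicate 14, difference 0.65). Also without short-day wild-type replicate 3 it was 0.0544.

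The other 9 exosome genes were not called, and their differences between long and short days over both genotypes ran from -0.18 for exosc6 to 0.25 for exosc8. The other cap subunits, exosc2 and exosc3, gave 0.07 (interval -0.11 to 0.24) and -0.07 (interval -0.22 to 0.07). The nuclease exosc10 gave -0.05 (interval -0.21 to 0.11). Their levels summed without exosc1 were 212 to 230 TPM in long-day knockout, 224 to 245 TPM in short-day knockout, 207 to 240 TPM in long-day wild type and 214 to 223 TPM in short-day wild type, and these ranges overlapped between day lengths. The exosome genes outside the names used, 15 tested catalytic subunits and cofactors, held 0 calls by limma in the same comparison, and 5 (1 higher, 4 lower) had an unadjusted p under 0.05, or 33.3%, beside 18.8% of all tested genes.

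**Figure D4:**
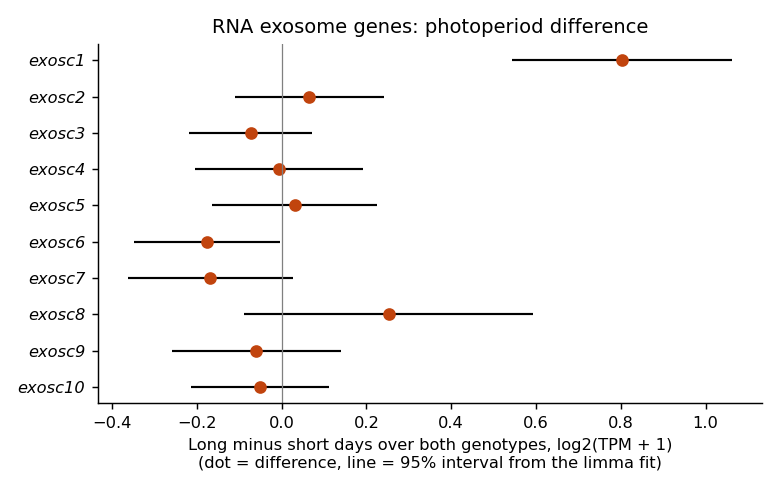
Long-day minus short-day difference over both genotypes for the 10 exosome genes, on the log2(TPM + 1) scale; dots are limma estimates and lines 95% intervals. exosc1 stands at 0.80, and the other 9 lie between -0.18 and 0.25.

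In the small-subunit group the called gene was nol10, a processome protein. It stood at 19.3, 21.2 and 19.8 TPM in long-day knockout, 15.6, 15.5 and 15.3 TPM in short-day knockout, 18.3, 17.0 and 20.2 TPM in long-day wild type, and 16.3, 14.6 and 14.6 TPM in short-day wild type. All long-day libraries lay above all short-day libraries. Over both genotypes nol10 rose under long days to 1.26 times its short-day level (19.3 ± 1.49 TPM in long-day and 15.3 ± 0.649 TPM in short-day libraries, SD, n = 6 each; log2 difference 0.31, SE 0.06, limma adjusted p = 0.0230). The call was lost in 4 of 15 settings, each leaving out 1 library (short-day wild-type replicate 2 or 3, long-day wild-type replicate 15, long-day knockout replicate 14), with an adjusted p of at most 0.0677 and of 0.0542 without short-day wild-type replicate 3. Within each genotype it did not pass (0.35 in the knockout, limma adjusted p = 0.0680, and 0.27 in wild type, limma adjusted p = 0.254).

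In the processome subcomplexes UTP-A and UTP-B the differences lay on both sides of 0. In UTP-A, which binds the start of the precursor, the long-minus-short differences over both genotypes were 0.24 for utp4, -0.23 for utp15, -0.10 for wdr75, -0.08 for wdr43 and -0.01 for nol11, and none was called. Long-day and short-day libraries of utp15 did not overlap (15.3 ± 0.616 TPM in long-day and 18.2 ± 1.71 TPM in short-day libraries, SD, n = 6 each), yet its limma adjusted p was 0.106. In UTP-B they were 0.06 for utp18, -0.08 for wdr3, -0.12 for utp6 and -0.14 for wdr36, with none called. The Mpp10 partners imp3 and imp4 gave -0.04 and -0.19. tsr1, a late 40S factor, was lower under long days by similar amounts in both genotypes (-0.28 in the knockout and -0.26 in wild type, -0.27 over both with a limma adjusted p of 0.0862).

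In 60S assembly, nop2, a ribosomal RNA methyltransferase, and pes1, of the PeBoW complex, came next after sbds. nop2 stood at 16.3 ± 1.27 TPM in long-day and 20.4 ± 2.498 TPM in short-day libraries (SD, n = 6 each; log2 difference -0.30, limma adjusted p = 0.0551), and pes1 at 27.0 ± 1.99 TPM in long-day and 31.7 ± 1.28 TPM in short-day libraries (SD, n = 6 each; log2 difference -0.23, limma adjusted p = 0.0637). Neither was called, though nop2 was called in this comparison with median-ratio scaling, and pes1 without long-day wild-type replicate 15. The PeBoW partners bop1 and wdr12 gave 0.03 and -0.13. The same scaling also called nop2 and dkc1 in the knockout, which made 4 calls there. dkc1 stood at 60.6, 59.9 and 61.8 TPM in long-day knockout, 70.6, 75.6 and 70.05 TPM in short-day knockout, 56.1, 61.1 and 59.4 TPM in long-day wild type, and 57.6, 64.9 and 59.1 TPM in short-day wild type. Its short-day knockout libraries lay above all other 9. The fit gave -0.24 for long against short days in the knockout (SE 0.06, limma adjusted p = 0.0908) and 0.25 for knockout against wild type under short days (SE 0.06, limma adjusted p = 0.120), neither passing.

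In wild type the gene with the smallest p for a lower level under long days was nop56, a scaffold protein of the box C/D particle. It stood at 86.6, 91.5 and 83.4 TPM in long-day wild type and 94.8, 101.7 and 98.6 TPM in short-day wild type. The groups did not overlap, and the difference of -0.17 did not pass (SE 0.07, limma adjusted p = 0.363). In the reference annotation nop56 overlaps 3 other genes. The gene with the smallest p for a higher level was exosc1, given above.

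Genotype separated few of the genes. Over both photoperiods 3 were called for knockout against wild type, where the same test called 2.4% of all tested genes: rpf2 rose, and sbds and nop16 fell. At an unadjusted p under 0.05 there were 8 (3 higher, 5 lower), or 12.1%, beside 15.6% of all tested genes. The median difference of the 66 was 0.001, beside -0.003 over all tested genes, and 34 were higher and 32 lower. All 66 were under 0.5 in size, beside 94.6% of all tested genes. All 3 called genes act in 60S assembly, and of the 29 small-subunit genes limma called 0. At an unadjusted p under 0.05 there were 3 of the 17 60S genes (17.6%) and 4 of the 29 small-subunit genes (13.8%). Both shares are close to the 15.6% of all tested genes, so no difference between the roles is read from the calls. Under long days 1 gene was called, sbds, where the test called 0.642% of all tested genes, and 3 had an unadjusted p under 0.05 (1 higher, 2 lower), or 4.55%, beside 11.3%. Under short days 1 gene was called, rpf2, beside 0.664% of all tested genes, and 9 had an unadjusted p under 0.05 (6 higher, 3 lower), or 13.6%, beside 13.2%.

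rpf2, which with its partner brings the 5S ribosomal RNA into the early 60S particle, stood at 21.4, 25.5 and 25.3 TPM in long-day knockout, 24.7, 23.2 and 23.7 TPM in short-day knockout, 21.8, 20.7 and 19.6 TPM in long-day wild type, and 16.3, 15.98 and 18.05 TPM in short-day wild type. Short-day wild type lay below all other groups, and long-day knockout replicate 13 fell within the range of long-day wild type. Under short days rpf2 was higher in the knockout, 1.42 times the wild-type level (23.9 ± 0.749 TPM in knockout, 16.8 ± 1.11 TPM in wild type, SD, n = 3 each; log2 difference 0.49, SE 0.09, limma adjusted p = 0.0386). Over both photoperiods the difference was 0.34 (SE 0.06, limma adjusted p = 0.0177), and under long days it was 0.20 (SE 0.09, limma adjusted p = 0.413). The short-day call was lost under 11 of 17 settings, with an adjusted p up to 0.121 where 1 library was left out, 0.0711 without short-day wild-type replicate 3 and 0.0837 where only the compared groups were fitted. Among the fits that left out 1 library, the pooled call was lost without long-day wild-type replicate 15 (adjusted p = 0.0506).

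A gene 2 places from rpf2 among the tested genes in the reference order, LOC101170320, named after its values were seen, had 40.7, 2.77 and 3.23 TPM in long-day knockout and 1.54, 2.10 and 4.08 TPM in short-day knockout, against 31.9, 44.5 and 37.4 TPM in long-day wild type and 40.02, 36.8 and 50.6 TPM in short-day wild type. It fell in the knockout over both photoperiods by 2.90 on the log2 scale (limma adjusted p = 0.0146). The 1 knockout library in which it stood at a wild-type level, long-day replicate 13, was also the knockout library with the lowest rpf2. The part of this neighbour or its surroundings in the rpf2 difference was not tested.

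nop16, a factor of nucleolar 60S particles, stood at 62.3, 60.9 and 79.3 TPM in long-day knockout, 63.5, 65.5 and 61.2 TPM in short-day knockout, 95.1, 77.5 and 82.3 TPM in long-day wild type, and 76.5, 87.8 and 80.6 TPM in short-day wild type. Of the 6 knockout libraries 5 lay below all wild-type libraries, and long-day knockout replicate 16 lay among them. Over both photoperiods nop16 fell in the knockout to 0.786 times the wild-type level (65.5 ± 6.99 TPM in knockout, 83.3 ± 7.04 TPM in wild type, SD, n = 6 each; log2 difference -0.35, SE 0.07, limma adjusted p = 0.0361). The difference was -0.33 under long days and -0.36 under short days, neither passing alone (limma adjusted p = 0.224 and 0.178). The call was lost under 12 of 16 settings, with an adjusted p up to 0.0860 where 1 library was left out, 0.0783 without short-day wild-type replicate 3 and 0.0647 with median-ratio scaling, though the difference stayed between -0.41 and -0.30.

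wdr36, named after its values were seen, had 2 libraries apart from the rest, 36.3 TPM in long-day knockout replicate 16 and 39.0 TPM in short-day knockout replicate 3. The other 10 libraries stood at 56.3 to 71.5 TPM. Its knockout-minus-wild-type difference over both photoperiods was -0.36 (SE 0.13, limma adjusted p = 0.221), which did not pass.

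The photoperiod change differed between genotypes for none of the 66 genes by limma, where the interaction called 0.00549% of all tested genes, and 3 had an unadjusted p under 0.05 (sbds, rpf2 and dkc1, all with a negative interaction), or 4.55%, beside 7.93%. Besides sbds, the gene with the smallest p in the other direction was utp4, at 15.9, 14.7 and 12.9 TPM in long-day knockout, 8.20, 10.6 and 12.7 TPM in short-day knockout, 11.1, 12.2 and 13 TPM in long-day wild type, and 11.8, 11.4 and 12.2 TPM in short-day wild type. Its interaction of 0.41 (SE 0.20, limma adjusted p = 0.642) did not pass. The 95% interval of an interaction reached 0.349 to either side at the median over the 66 genes.

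**Figure D5:**
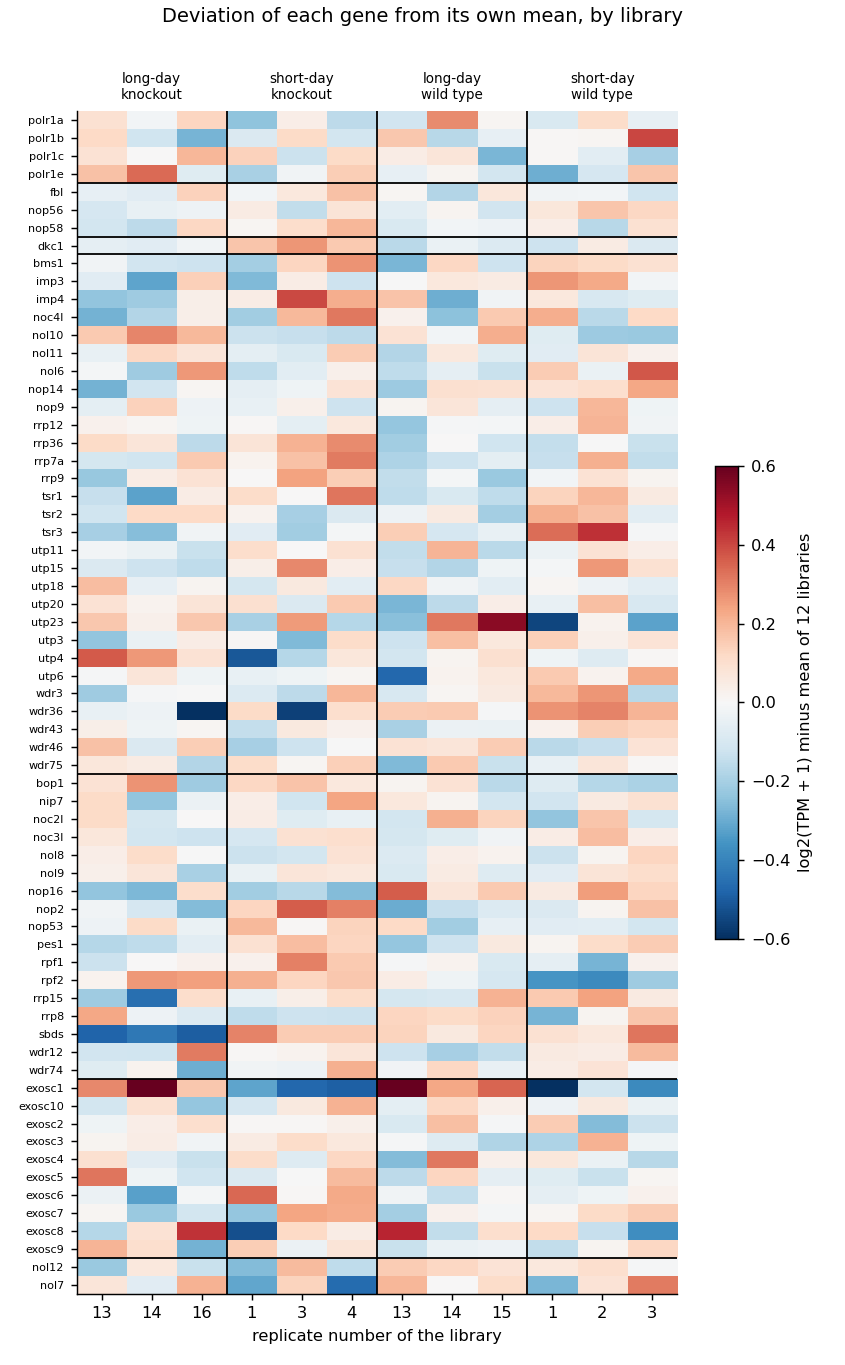
Deviation of log2(TPM + 1) from the gene's own mean over 12 libraries, for each of the 66 genes (rows, by role) in each library (columns, by group and replicate number); red is higher, blue lower, and colours stop at 0.6. The low sbds values fill the 3 long-day knockout columns, exosc1 changes colour between day lengths in both genotypes, and most other rows show no block by group.

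Genes of these routes that carry other names were tested as well, together with RNA polymerase III subunits and growth-control genes, which are not assembly or exosome factors. Of 103 tested genes in 7 lists (RNA polymerase I factors, small- and large-subunit factors, H/ACA and nucleolar proteins, exosome catalytic subunits and cofactors, RNA polymerase III subunits, and growth control), 2 were called for long against short days over both genotypes, both up, where the test called 3.08% of all tested genes. At an unadjusted p under 0.05 there were 36 of the 103 (16 higher, 20 lower), or 35%, beside 18.8% of all tested genes and 19.7% of the 66, and the median difference of the 103 was -0.02. The first, ddx21, a nucleolar RNA helicase, averaged 131 ± 10.9 TPM in long-day and 98.6 ± 8.91 TPM in short-day knockout, and 137 ± 6.80 TPM in long-day and 110.4 ± 1.03 TPM in short-day wild type (SD, n = 3 each). Its rise over both genotypes was 0.35 (SE 0.06, limma adjusted p = 0.00724), and day lengths did not overlap. The other, maf1, a repressor of RNA polymerase III, averaged 145 ± 7.5 TPM in long-day and 113 ± 9.38 TPM in short-day knockout, and 145 ± 9.32 TPM in long-day and 131 ± 3.14 TPM in short-day wild type (SD, n = 3 each; difference over both genotypes 0.25, limma adjusted p = 0.0276).

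For genotype, 1 of the 103 was called over both photoperiods, beside 2.4% of all tested genes. It was polr3gl, an RNA polymerase III subunit, which rose in the knockout. It averaged 141 ± 25.5 TPM in long-day knockout, 90.2 ± 19.1 TPM in short-day knockout, 80.03 ± 4.01 TPM in long-day wild type and 73.9 ± 0.083 TPM in short-day wild type (SD, n = 3 each), a difference of 0.53 over both photoperiods (SE 0.10, limma adjusted p = 0.0234). polr3gl was also called for genotype under long days (0.79, limma adjusted p = 0.0387). In the knockout it was called for long against short days (0.64, limma adjusted p of 0.05 after rounding). Its short-day knockout libraries, at 72.02 to 110.15 TPM, overlapped short-day wild type at 73.82 to 73.98 TPM. The 8 tested RNA polymerase I factors held 0 calls by limma in the pooled comparisons, with 2 at an unadjusted p under 0.05 in each, or 25%, beside 18.8% of all tested genes for day length and 15.6% for genotype.

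In bulk tissue, fewer cells of a type and less RNA per cell cannot be told apart. Some markers of particular cells moved with day length. Of 12 tested proliferation markers 3 rose under long days over both genotypes (mcm7 by 0.61, ccnb1 by 0.57 and cdk1 by 0.50, log2). The same test called 3.08% of all tested genes. Of the 12, 8 had higher and 4 lower means, with a median difference of 0.226. ccnb1 stood near the level filter, with group means of 1.17 to 2.76 TPM. The summed level of the 12 was 188 to 202 TPM in long-day knockout, 179 to 189 TPM in short-day knockout, 190 to 206 TPM in long-day wild type and 171 to 193 TPM in short-day wild type. Of 5 tested pituitary markers 3 rose (fshb by 2.71, lhb by 2.40 and cga by 2.26, log2), while 1 had a lower mean. The sums of the 5 were 4613 to 9185 TPM in long-day knockout, 2067 to 9231 TPM in short-day knockout, 5192 to 9462 TPM in long-day wild type and 3492 to 6615 TPM in short-day wild type. These sums spread widely within groups and overlapped between day lengths, so they do not show the rises of the 3 genes. Of 7 radial glia markers 2 rose (cyp19b and s100b), while 4 had lower means and the list's median difference was -0.03, with sums of 6213 to 6656 TPM in long-day knockout, 5739 to 6345 TPM in short-day knockout, 6774 to 7179 TPM in long-day wild type and 5792 to 5946 TPM in short-day wild type. These 7 include 2 genes with the symbol sox2, each counted. Of 9 neuron markers gad1 fell, while 5 had higher means and the median difference was 0.014, with sums of 4627 to 5025 TPM in long-day knockout, 4958 to 5203 TPM in short-day knockout, 4577 to 4954 TPM in long-day wild type and 4323 to 4848 TPM in short-day wild type.

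For genotype over both photoperiods, where the test called 2.4% of all tested genes, 1 of 7 radial glia markers was called: s100b fell in the knockout. Of these 7, 3 had higher and 4 lower means in the knockout, with a median difference of -0.061. Of 5 pituitary markers 1 was called: pou1f1, a pituitary lineage factor, rose in the knockout (limma adjusted p = 0.0491). Of these 5, 3 had higher and 2 lower means. All 4 tested endothelial markers had higher means in the knockout (median difference 0.235). Limma called 0 of them, and 2 had an unadjusted p under 0.05, beside 15.6% of all tested genes. The summed level of these 4 was 78.6 to 84.9 TPM in long-day knockout, 68.3 to 85.2 TPM in short-day knockout, 59.9 to 66.7 TPM in long-day wild type and 65.4 to 73.8 TPM in short-day wild type, and under long days the genotypes did not overlap. The 2 tested microglia and macrophage markers had lower means in the knockout (median difference -0.228), with 0 called and 1 at an unadjusted p under 0.05. Of 6 oligodendrocyte markers 5 had higher means and 1 a lower mean (median difference 0.031), with 0 called. Among the genes of these lists prl alone was at 0 TPM in any library, and no red blood cell marker name was matched. The part of these cells in the changes of exosc1, nol10, sbds, rpf2 and nop16 was not tested.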

How the data were processed

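Libraries were paired-end and strand-specific, made from poly(A) RNA, per the labels' protocols. The authors deposited TPM values per gene for 12 libraries, to 2 decimals, each column summing to 1000000 within rounding. STAR 2.7.9a and RSEM 1.3.1 are named, without roles, in the submitters' processing notes, and the sources used here do not give the genome build or annotation. RSEM divides reads shared by gene copies, which leaves such genes uncertain, and 18 of the 66 genes overlap another gene in the annotation. All 26663 gene IDs matched the RefSeq table of assembly ASM223467v1, used for symbols and gene order only. TPM keeps no depth, so precision rests on the spread between libraries.

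Genes with at least 1 TPM in at least 3 libraries (18218, of which 9446 carry a symbol other than a LOC number) entered limma 3.58.1 in R 4.3.3 as log2(TPM + 1), with a mean for each of 4 groups and a trend in the prior variance. The pseudocount shrinks differences of low genes. There were 7 two-sided contrasts, and p-values were adjusted over all tested genes by Benjamini-Hochberg. The fit was tested on simulated data. Every called gene was named, and where a contrast called none, the gene of smallest p in each direction. Alternatives were a pseudocount of 0.1, any TPM above 0, median-ratio scaling, the compared groups alone, the number in titles as a block, and leaving out each library. The genes, lists and tests were chosen with earlier results of these data known.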

Additional observations from a re-analysis of the deposited data

How the results depend on the processing

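The calls of sbds (knockout, long against short days, and the same over both genotypes) and of exosc1 over both genotypes kept their side of the threshold under every setting run. With median-ratio scaling 4 of the 66 genes were called for long against short days in the knockout, the wild-type median was 0.007 and the interaction median -0.067; among all tested genes this scaling made the split of rising and falling calls 192 and 182 (main 202 and 119) in the knockout, 14 and 13 (main 12 and 23) in wild type, 63 and 44 (main 86 and 31) for genotype under long days and 71 and 60 (main 53 and 68) under short days, with no median over all genes moved by over 0.1. Fits to the compared groups alone called 1 of the 66 in the knockout and 61 genes in all, 1 gene in all in wild type, and 0 of the 66 and 74 genes in all for genotype under short days. The labels do not say whether the numbers in the titles pair the samples. Knockout and wild-type libraries of the same number shared little deviation (correlations of deviations 0.082, 0.088, -0.048 and -0.005), which does not settle it. With the numbers as a replicate block, 0 of the 66 and 6 genes in all were called for genotype under long days, 0 and 6 under short days, 0 and 30 over both, and 0 genes for the interaction. The interaction called 0 genes with a pseudocount of 0.1 and 6 without the level filter. The causes were not tested. Leaving out 1 library (with 2 left in its group, their spread pooled with the others) gave 1 to 2 of the 66 and 81 to 320 genes in the knockout, 10 to 37 genes in wild type, 214 to 520 over both genotypes, 43 to 160 for genotype under long days, 0 to 1 of the 66 and 27 to 110 under short days, 0 to 3 of the 66 (0 without long-day wild-type replicate 15) and 208 to 380 over both, and 0 to 1 of the 66 and 0 to 6 genes for the interaction. The sbds differences that were not called ran from -0.10 to 0.031 in wild type (0.031 without short-day wild-type replicate 3) and from -0.006 to 0.125 for genotype under short days. Unknown depth and 3 libraries a group limit differences much below 0.25, and some larger ones did not pass after adjustment.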

Other observations

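The genes beside the 5 called genes were looked at in the reference order, 5 tested genes on each side, and those named here were chosen after their values were seen. Next to nol10 stands odc1, the first enzyme of polyamine synthesis, at 35.3, 35.2 and 43.9 TPM in long-day knockout, 71.7, 59.6 and 65.4 TPM in short-day knockout, 43.3, 42.5 and 49.7 TPM in long-day wild type, and 61.3, 51.4 and 64.8 TPM in short-day wild type. Each long-day library lay below each short-day library, the opposite order to nol10. Over both genotypes odc1 fell under long days by 0.575 on the log2 scale (limma adjusted p = 0.00501). The next gene on that side, LOC111946870, stood at 6.63 to 8.55 TPM in the 6 knockout libraries and at 0 to 1.52 TPM in the 6 wild-type libraries (log2 difference over both photoperiods 2.44, limma adjusted p = 7.4e-05), while nol10 itself differed by 0.07 between genotypes (limma adjusted p = 0.638).

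Beside sbds 0 of the 10 neighbours were called by limma for long against short days in the knockout, where it called 1.76% of all tested genes. An unadjusted p under 0.05 was found for 4 of the 10, beside 15.9% of all tested genes. Of the 4, rhbdd1 (0.549) and LOC101161177 (0.249) were higher under long days, and LOC101160182 (-1.4) and LOC101162058 (-1.28) were lower. LOC101160182 was also lower in the knockout than in wild type under long days (-1.55), which did not pass (limma adjusted p = 0.129). These 10 genes share 1 place in the genome and were looked at because sbds was called, so the count is a description and not a test. A gene 2 places away, LOC101162058, stood at 13.9, 11.8 and 9.85 TPM in long-day knockout, 31.6, 28.1 and 30.1 TPM in short-day knockout, 40.3, 41.7 and 41.1 TPM in long-day wild type, and 11.2, 38.8 and 64.9 TPM in short-day wild type. Its difference in the knockout was -1.28 (limma adjusted p = 0.184), which did not pass. Like sbds it was low in all 3 long-day knockout libraries, but it was also low in short-day wild-type replicate 1, where sbds stood at 139 TPM. The part of LOC101162058 in the sbds difference was not tested.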
